A study of Mus musculus with 8 samples.

Results

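Cholesterol handling was examined in the livers of 8 mice through 32 genes chosen by name, of 16793 genes listed in the data. These were 18 enzymes of cholesterol synthesis, 5 genes of sterol sensing and sterol transport, 3 genes of lipoprotein uptake, 4 transporters of cholesterol efflux and 2 enzymes of cholesterol esterification. All 32 were found, and all 32 were among the 13241 genes with enough counts to be tested. The groups were 4 wild-type (WT) mice and 4 mice with a liver specific knockout of E4bp4 (E4bp4-LKO), a transcriptional repressor encoded by Nfil3. Every mouse of both groups was put on a NASH diet (a feed that produces fatty, inflamed and scarred liver) when 2 months old and kept on it for 20 weeks, and no group on ordinary chow was analysed here. The sources used here do not give the Cre line, the deleted exons, sex or strain. Nothing in the labels ties a WT mouse to an E4bp4-LKO mouse. The mice are named here by their numbers, 164, 165, 166 and 167 for WT and 143, 144, 145 and 179 for E4bp4-LKO.

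Cholesterol is built from acetyl-CoA through mevalonate, the isoprenoid units and squalene, and then through a series of sterols. When the membrane of the endoplasmic reticulum is low in cholesterol, SCAP carries the transcription factor SREBP2 (the product of Srebf2) to the Golgi, where it is cleaved and released to switch on nearly every enzyme of this route, whereas INSIG proteins hold SCAP back when sterols are plentiful. Oxidised sterols act in the opposite sense through the LXR receptors, which raise the transporters ABCA1, ABCG1, ABCG5 and ABCG8 that move cholesterol out of the cell, into plasma lipoproteins or into bile. In the liver these routes meet, because hepatocytes make cholesterol, take it up from lipoproteins, secrete it and turn it into bile acids.

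Summed counts ranged from 23805540 to 32290265 per library, and 3 counts, taken as the floor of detection, stood for 0.0929 to 0.126 CPM, the count scaled by library size. Nfil3 checked the labels: its level was 11.4, 8.79, 12.1 and 16.5 CPM in WT mice 164, 165, 166 and 167, and 3.33, 6.22, 6.14 and 3.35 CPM in E4bp4-LKO mice 143, 144, 145 and 179. Every E4bp4-LKO liver lay below every WT liver, and the log2 fold change was -1.35 (SE 0.25, edgeR quasi-likelihood adjusted p = 0.0121). The hepatocyte markers were abundant in all livers, with a summed level of 53298 to 69537 CPM in WT and 68580 to 84213 CPM in E4bp4-LKO, where 1 of the 6 tested rose, and WT mouse 164 held the lowest value. The summed markers of lipid-associated macrophages were 324 to 810 CPM in WT and 146 to 180 CPM in E4bp4-LKO, where 6 of 6 fell. That count was 4 without WT mice 164 and 165. The summed markers of stellate cells and fibroblasts were 743 to 1470 CPM and 436 to 622 CPM, where 4 of 7 fell, a count of 0 without WT mice 164 and 165. Those of macrophages and Kupffer cells were 898 to 1150 CPM and 665 to 896 CPM, where 5 of 10 fell, a count of 3 without these mice. No fall passed the test among the endothelial markers (195 to 233 CPM in WT, 196 to 294 CPM in E4bp4-LKO), the cholangiocyte markers (12.4 to 32.9 and 8.08 to 12.6 CPM) or the T, NK and B cell markers (4.27 to 5.69 and 3.46 to 5.85 CPM). The log2 fold changes of the 4 cholangiocyte markers were all negative (-1.41 to -0.54). All 4 had an unadjusted edgeR p under 0.05, and 2 were lower by DESeq2. Of the 7 hepatocyte markers, 1 (Tf) was not listed under that symbol, and no other marker was at 0 in any library.

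Of the 32 cholesterol genes, 2 rose in E4bp4-LKO liver and 0 fell at an adjusted p under 0.05. The genes that rose were Stard4, which carries cholesterol between membranes, and Abca1, which loads cholesterol onto apolipoprotein A-I. Over all 13241 genes tested, 4.38% rose and 6.49% fell, so the counts among the cholesterol genes stood close to the background. At an unadjusted p under 0.05 there were 9 of 32, beside 28.3% of all genes. With DESeq2, 5 of the 32 rose (Stard4, Abca1, Ebp, Lrp1 and Abcg8) and 2 fell (Hmgcs1 and Abcg1), where the background was 6.86% higher and 8.9% lower. The fitted log2 fold change was positive for 21 of the 32 and negative for 11, with a median of 0.08 beside 0.01 over all genes.

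The groups of genes did not share 1 direction. The median log2 fold change was -0.08 over the 7 mevalonate enzymes, 0.08 over the 11 enzymes of the sterol steps, 0.18 over the sensing and transport genes, 0.12 over the uptake genes, 0.41 over the efflux transporters and 0.19 over the esterification enzymes. The 18 synthesis enzymes together had a median of 0.04. Relative to the median of all genes, that of the synthesis enzymes was 0.03 in all 8 livers, -0.11 without E4bp4-LKO mouse 143 and 0.15 without E4bp4-LKO mouse 144, so its side of 0 depended on single mice. The efflux transporters stood farthest above all genes, although 1 of the 4 had a negative estimate. When libraries were scaled by their totals rather than by TMM, which levels libraries on the bulk of their genes, the median of all genes moved to -0.15, and 0 of the 32 genes rose and 1 (Abcg1) fell. The order of the groups was described and not tested.

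**Figure D1:**
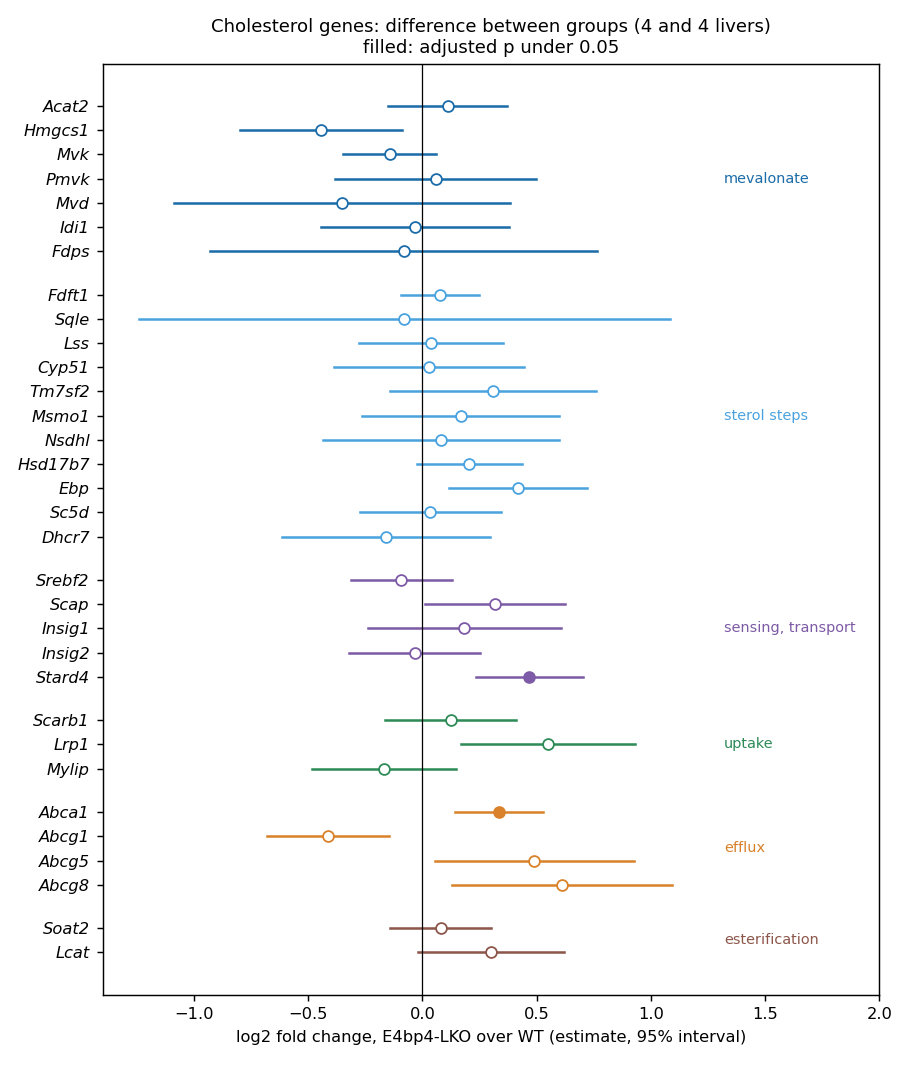
Fitted log2 fold change of E4bp4-LKO over WT (x axis) for each of the 32 cholesterol genes (y axis), grouped and coloured by role, with 95% confidence intervals and 4 livers per group. Filled circles mark Stard4 at 0.47 and Abca1 at 0.34, the 2 genes that passed an adjusted p of 0.05, while the 18 synthesis enzymes lie between -0.44 and 0.42.

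None of the 18 synthesis enzymes passed the test in either direction (0 higher and 0 lower by edgeR, 2 at an unadjusted p under 0.05, and 1 higher and 1 lower by DESeq2). Their estimates ran from -0.44 to 0.42 and were positive for 11 and negative for 7. In FPKM, a level scaled by transcript length as well as library size, the WT means of the 18 spanned from 2.31 ± 1.13 (SD, n = 4) for Sqle, the squalene epoxidase, to 162 ± 26.6 for Sc5d, the sterol C5-desaturase. Sqle and Mvd, the mevalonate diphosphate decarboxylase (3.09 ± 1.48 FPKM), were the least abundant enzymes of the route in WT liver, and Sc5d, Fdps (74.0 ± 24.6 FPKM) and Ebp (73.9 ± 10.6 FPKM) the most abundant. Fdps makes farnesyl diphosphate, the branch point to squalene and to protein prenylation. The SDs of Fdps and Ebp overlapped, and their order was not the same in every WT liver. Those of Sqle and Mvd overlapped too, although Mvd was the higher in every WT liver. Neither difference was tested.

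Among the mevalonate steps, Hmgcs1, which condenses acetoacetyl-CoA with acetyl-CoA, had the smallest p. Its level was 157, 139, 115 and 125 CPM in WT mice 164, 165, 166 and 167 and 124, 69.8, 94.8 and 106 CPM in E4bp4-LKO mice 143, 144, 145 and 179. Only E4bp4-LKO mouse 143 reached into the WT range. On the log2 scale the difference was -0.44 (SE 0.16, 95% interval -0.80 to -0.09), with an edgeR adjusted p of 0.1003 and a DESeq2 adjusted p of 0.0495, and without mouse 143 it was -0.57 (edgeR adjusted p = 0.0419). Mvk, the mevalonate kinase, varied little between mice of a group, with 9.94, 8.85, 10.1 and 9.27 CPM in WT and 8.66, 8.50, 9.15 and 8.21 CPM in E4bp4-LKO. Its log2 fold change was -0.14 (SE 0.09, edgeR adjusted p = 0.341), and the groups overlapped. For the other 5 mevalonate enzymes (Acat2, Pmvk, Mvd, Idi1 and Fdps) the estimates lay between -0.35 and 0.11.

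Among the sterol steps the smallest p belonged to Ebp, the sterol isomerase that moves a double bond in the B ring. Ebp stood at 99.2, 104, 139 and 153 CPM in WT mice 164 to 167 and at 158, 170.4, 181 and 152 CPM in E4bp4-LKO mice 143, 144, 145 and 179. Mice 164 and 165 were the low ones in WT, while WT mouse 167 and E4bp4-LKO mouse 179 stood level. Ebp had a log2 fold change of 0.42 (SE 0.14, 95% interval 0.11 to 0.72, edgeR adjusted p = 0.0756), and DESeq2 gave an adjusted p of 0.0304. Without WT mouse 167 the edgeR adjusted p for Ebp was 0.0236 at a log2 fold change of 0.54. Hsd17b7, a keto-reductase of the C4 demethylation, was 41.6, 37.4, 40.0 and 39.5 CPM in WT and 55.3, 37.4, 45.9 and 44.1 CPM in E4bp4-LKO, a log2 fold change of 0.20 (SE 0.10, edgeR adjusted p = 0.227). The E4bp4-LKO values of Hsd17b7 lay above the WT range in 3 of 4 mice. The remaining 9 sterol-step enzymes had estimates between -0.16 (Dhcr7, the last reductase of the Kandutsch-Russell branch) and 0.31 (Tm7sf2, a sterol C14-reductase).

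The synthesis enzymes varied more between E4bp4-LKO mice than between WT mice, and in both groups many of them were high or low in the same livers. In WT, mouse 164 was highest for 12 of the 18 and mouse 165 lowest for 11. In E4bp4-LKO, each of the 18 was highest in mouse 143 (12 enzymes) or mouse 145 (6 enzymes), and lowest in mouse 144 (12 enzymes) or mouse 179 (6 enzymes). Over all 8 livers, mouse 143 held the highest value for 10 of the 18 and mouse 144 the lowest for 11. Such counts were not made over all genes, so they may not be particular to the synthesis enzymes. WT mouse 164 was also lowest of all livers for 6 of 6 hepatocyte markers and highest for 6 of 7 stellate cell and fibroblast markers. As the mean log2 deviation from each enzyme's average over the 8 livers, the 18 enzymes stood at 0.36 in mouse 143, -0.37 in 144, 0.23 in 145 and -0.27 in 179. The WT mice lay closer together, at 0.19 in 164, -0.13 in 165, -0.06 in 166 and 0.05 in 167, and the SD over mice was 0.362 in E4bp4-LKO and 0.139 in WT. The SD of log2 CPM was larger in E4bp4-LKO for 14 of the 18 enzymes (77.8%), beside 50.3% of all genes tested. A larger SD was not particular to these enzymes, as 5 of 6 endothelial markers had it too. So did 19 of the 31 further genes of cholesterol handling tested below (61.3%). Among those were 7 of 8 genes of lysosomal and membrane sterol transport, but 0 of 4 further synthesis genes. The difference in spread of the 18 enzymes, seen in 4 mice per group, was not tested. The labels tell nothing that separates mice 143 and 145 from 144 and 179. The summed endothelial markers were highest in mouse 143, at 294 CPM, and stood at 220 CPM in 144, 196 CPM in 145 and 206 CPM in 179, and their part in the spread was not tested.

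**Figure D2:**
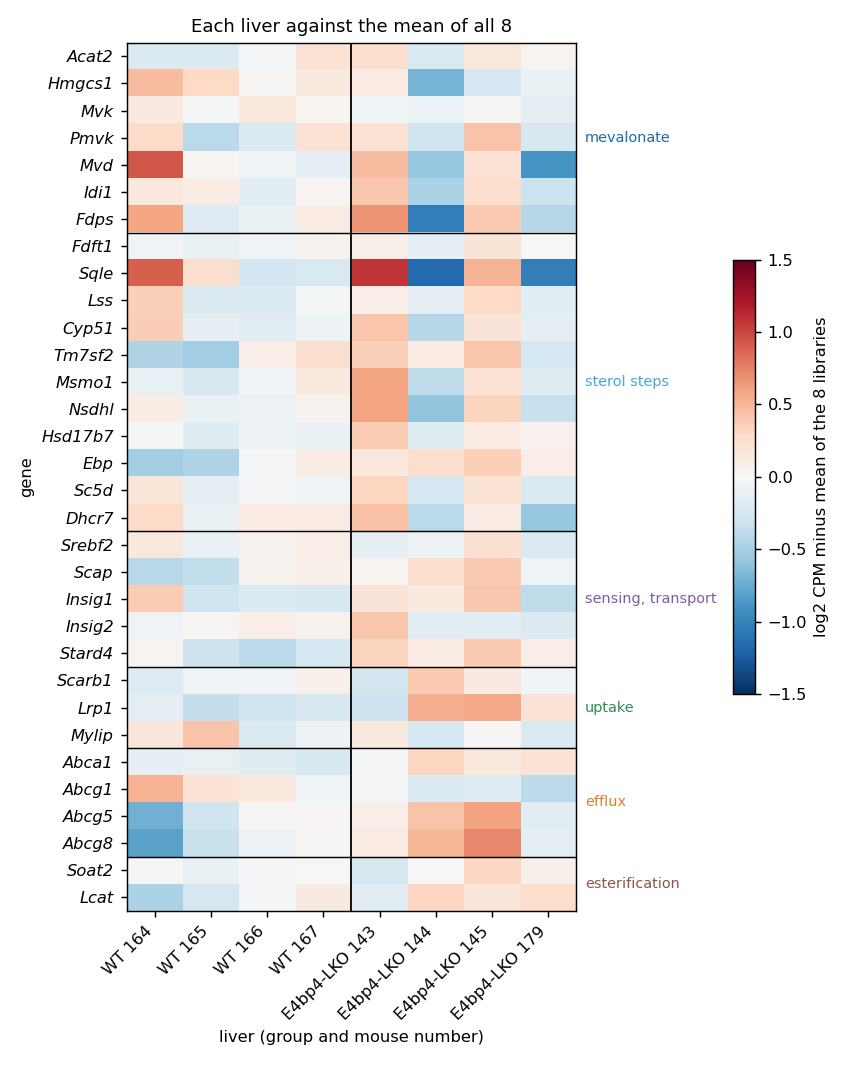
Colour gives the log2 CPM of each gene (rows, grouped by role) in each liver (columns) minus its mean over the 8 libraries. Most synthesis enzymes are red in E4bp4-LKO mice 143 and 145 and blue in 144 and 179, and Lrp1, Abcg5 and Abcg8 do not follow that order.

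Sqle and Fdps had the widest range within E4bp4-LKO of the 18 enzymes. Sqle was 9.34, 5.92, 4.10 and 4.27 CPM in WT mice 164 to 167 and 10.6, 2.24, 7.13 and 2.45 CPM in E4bp4-LKO mice 143, 144, 145 and 179, so that the highest and the lowest E4bp4-LKO liver differed 4.73 times and the corresponding WT livers 2.28 times. Fdps was 122, 70.8, 74.9 and 88.1 CPM in WT and 129.8, 39.6, 106 and 60.2 CPM in E4bp4-LKO, a range of 1.72 times in WT and 3.28 times in E4bp4-LKO. The group means of both genes stood close together, at 5.91 ± 2.43 and 5.60 ± 4.02 CPM for Sqle and at 88.9 ± 23.2 and 84.0 ± 41.4 CPM for Fdps (SD, n = 4). With this spread the 95% interval of the log2 fold change of Sqle ran from -1.24 to 1.08 and that of Fdps from -0.93 to 0.76, so differences of these sizes could not be told from 0.

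Stretches of DNA before the start sites of 3 enzymes are shown, because SREBP2 and its partner NF-Y are known to act there in such genes. Whether these sites bear on the spread between livers was not tested. Hmgcs1 is the only one of the genes with a sequence in the RefSeq table that has a match to the sterol regulatory element core, and Mvd and Nsdhl, a dehydrogenase of the C4 demethylation, had the widest E4bp4-LKO range among the enzymes found in that table. The windows are the 250 bases before the annotated start in RefSeq on GRCm38.p6, read along the gene: chr13:119690101-119690350 on the plus strand for Hmgcs1, chr8:122443423-122443672 on the minus strand for Mvd and chrX:72918271-72918520 on the plus strand for Nsdhl. Capitals mark matches to TCACNCCAC (the sterol regulatory element core) and to CCAAT, the NF-Y box, or its reverse complement ATTGG.
Hmgcs1: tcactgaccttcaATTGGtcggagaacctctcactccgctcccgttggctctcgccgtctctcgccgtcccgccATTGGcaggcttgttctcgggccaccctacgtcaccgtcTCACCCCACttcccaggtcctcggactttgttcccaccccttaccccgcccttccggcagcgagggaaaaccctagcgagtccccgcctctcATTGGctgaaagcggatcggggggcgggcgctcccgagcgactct
Mvd: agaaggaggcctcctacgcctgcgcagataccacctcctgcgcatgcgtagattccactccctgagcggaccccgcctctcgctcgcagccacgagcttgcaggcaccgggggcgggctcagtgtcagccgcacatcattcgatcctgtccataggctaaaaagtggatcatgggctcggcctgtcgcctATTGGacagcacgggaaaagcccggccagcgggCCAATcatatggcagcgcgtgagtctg
Nsdhl: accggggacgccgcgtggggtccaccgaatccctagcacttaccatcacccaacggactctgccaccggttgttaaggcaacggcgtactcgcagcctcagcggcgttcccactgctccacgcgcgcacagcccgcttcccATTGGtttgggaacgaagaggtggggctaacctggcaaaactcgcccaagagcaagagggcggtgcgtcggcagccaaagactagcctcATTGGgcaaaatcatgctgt

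Of the 32 cholesterol genes, 25 matched the promoter table. The core TCACNCCAC, read on both strands, was found for 1 of these 25 genes. It was found for 1.22% of all genes in the table and in 1.05% of all 32851 windows. CCAAT was found for 20 of the 25 genes (80%) and for 14 of the 15 matched synthesis enzymes, beside 37.5% of all genes in the table and 33.8% of all windows. TTANGTAA, a form of the D-box to which E4BP4 binds, was found for 0 of the 25, beside 2.44% of all genes and 2.06% of all windows. The LXR element with both half-sites unvaried was found for 0 of the 25, beside 0.0148% of all genes and 0.0152% of all windows. These are matches of letters in 250 bases, and binding was not measured. Other forms of these elements, such as an LXR element with varied half-sites, were not searched for. A count of 0 or 1 therefore does not show that such elements are absent.

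In the group of sterol sensing and transport, Stard4 rose. Its level was 33.0, 25.9, 24.4 and 26.8 CPM in WT mice 164, 165, 166 and 167 and 40.6, 34.9, 42.2 and 34.5 CPM in E4bp4-LKO mice 143, 144, 145 and 179. The groups did not overlap, which held in the higher direction for 2 of the 32 genes and for 8.81% of all genes, and in the lower direction for 0 of the 32 and 9.68% of all genes. The log2 fold change was 0.47 (SE 0.11, 95% interval 0.23 to 0.70, edgeR adjusted p = 0.0226), from 27.5 ± 3.79 to 38.1 ± 3.95 CPM. It did not pass without WT mouse 165 (0.44, edgeR adjusted p = 0.0647), without E4bp4-LKO mouse 145 (0.41, adjusted p = 0.0610) or on library totals, where it was 0.30 (adjusted p = 0.158). Limma on log2 FPKM did not call Stard4 either (0.29, adjusted p = 0.143 with pseudocount 1).

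Srebf2 itself differed little, with a mean of 46.4 ± 3.74 CPM in WT and 43.5 ± 6.12 CPM in E4bp4-LKO livers (log2 fold change -0.09, SE 0.10, edgeR adjusted p = 0.599). Messenger RNA levels do not show how much SREBP2 was cleaved. Scap was 80.2, 83.1, 111 and 113 CPM in WT and 110.3, 129, 141 and 103 CPM in E4bp4-LKO, with WT mice 164 and 165 low and the rest of both groups intermixed (log2 fold change 0.32, SE 0.14, edgeR adjusted p = 0.162). Insig1, which SREBP2 itself switches on, was 212, 133, 142 and 138 CPM in WT and 187, 181, 216 and 125 CPM in E4bp4-LKO. Its WT mouse 164 stood alone above the other WT mice, as it did for Mvd and Cyp51. Insig2, whose liver transcript follows other signals, was 159, 168, 176 and 171 CPM in WT and 219, 147, 148 and 143 CPM in E4bp4-LKO, with E4bp4-LKO mouse 143 standing apart. Neither passed the test (edgeR adjusted p = 0.576 for Insig1 and 0.898 for Insig2).

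Of the uptake genes, none passed the test in all 8 livers. Lrp1, the large hepatic receptor for remnant lipoproteins, was 739, 633, 659 and 682 CPM in WT and 652, 1183, 1198 and 940.0 CPM in E4bp4-LKO mice 143, 144, 145 and 179. The WT livers were close together, E4bp4-LKO mouse 143 lay within their range and the other 3 lay above it. The log2 fold change of Lrp1 was 0.55 (SE 0.17, 95% interval 0.17 to 0.93, edgeR adjusted p = 0.0650). Without mouse 143 it was 0.71 and passed (edgeR adjusted p = 0.00882), as it did with DESeq2 on all livers (adjusted p = 0.0113). Mylip, the LXR-induced ubiquitin ligase that removes lipoprotein receptors, was 20.0, 23.9, 15.3 and 16.9 CPM in WT and 19.7, 14.9, 18.0 and 15.3 CPM in E4bp4-LKO livers (log2 fold change -0.17, SE 0.14, edgeR adjusted p = 0.488). Scarb1, the HDL receptor, averaged 242 ± 18.2 and 264 ± 51.7 CPM (0.12, SE 0.13, adjusted p = 0.585). The ranges of both overlapped between the groups.

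The 4 efflux transporters had the largest estimates as a group, with an estimate of the opposite sign for Abcg1. Abca1 was 242, 245, 233 and 223 CPM in WT mice 164, 165, 166 and 167 and 262, 330.0, 294 and 304 CPM in E4bp4-LKO mice 143, 144, 145 and 179. Every E4bp4-LKO liver lay above every WT liver, and mouse 143 came closest. Abca1 rose by a log2 fold change of 0.34 (SE 0.09, 95% interval 0.14 to 0.53, edgeR adjusted p = 0.0361), from 236 ± 9.72 to 297 ± 28.1 CPM, and DESeq2 gave an adjusted p of 0.00150. The call was lost in 6 of the 8 fits that left out 1 mouse (without WT mice 165, 166 or 167, or E4bp4-LKO mice 144, 145 or 179, adjusted p = 0.0643 to 0.106). On library totals the log2 fold change of Abca1 was 0.17 (adjusted p = 0.229), and limma on log2 FPKM did not call it either (0.17, adjusted p = 0.224 with pseudocount 1).

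Abcg1, which passes cholesterol to HDL and is known to be strong in macrophages, was 45.4, 36.6, 34.9 and 30.2 CPM in WT and 31.1, 27.5, 27.6 and 24.1 CPM in E4bp4-LKO. Only E4bp4-LKO mouse 143 lay above the lowest WT liver. Abcg1 had a log2 fold change of -0.41 (SE 0.12, 95% interval -0.68 to -0.15, edgeR adjusted p = 0.0514). It passed by DESeq2 (adjusted p = 0.0226), by edgeR on library totals (0.0359) and without WT mouse 167 (0.0207) or E4bp4-LKO mouse 143 (0.0431). WT mouse 164, with the highest Abcg1, also had the highest summed markers of macrophages and Kupffer cells (1150 CPM) and of lipid-associated macrophages (810.0 CPM). Over the 10 macrophage and Kupffer cell markers, however, the mean log2 deviation was 0.0008 in mouse 164. It was higher in WT mice 165 (0.27) and 166 (0.14) and in E4bp4-LKO mouse 143 (0.12). Over the lipid-associated macrophage markers, mouse 164 was highest by this measure too, at 1.47. The part of these cells in the values was not tested. In whole liver, fewer cells of a type and less RNA per cell cannot be told apart.

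Abcg5 and Abcg8 encode the partners of 1 transporter that secretes sterols into bile. Abcg5 was 144, 192, 239.6 and 238 CPM in WT and 253, 317, 359.9 and 212 CPM in E4bp4-LKO, and Abcg8 was 129, 180.3, 213 and 229 CPM in WT and 248, 319, 374 and 206 CPM in E4bp4-LKO. In both genes WT mouse 164 was lowest, E4bp4-LKO mouse 145 was highest, and E4bp4-LKO mouse 179 lay within the WT range. The log2 fold change was 0.49 for Abcg5 (SE 0.20, edgeR adjusted p = 0.131) and 0.61 for Abcg8 (SE 0.21, edgeR adjusted p = 0.0970, DESeq2 adjusted p = 0.0220). WT mouse 164 also had the lowest summed hepatocyte markers.

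**Figure D3:**
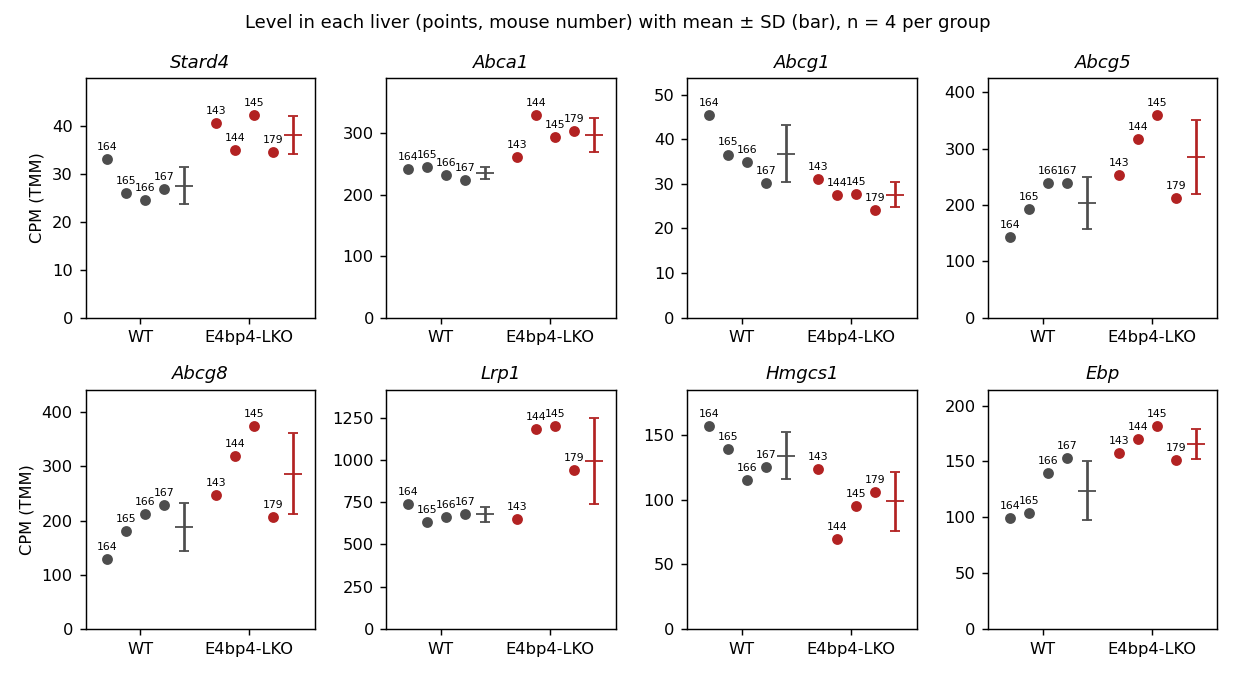
Level in CPM (y axis, from 0) of 8 cholesterol genes in each of the 4 WT and 4 E4bp4-LKO livers (points with mouse numbers), with mean ± SD beside them. The groups do not overlap for Stard4 and Abca1, and 1 or more livers overlap for the other 6 genes.

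The pair is shown with the DNA between them because they share it. The annotated start of Abcg5 and the nearer of the 2 annotated starts of Abcg8 have 109 bases between them in RefSeq on GRCm38.p6, and the genes run in opposite directions. The printed region, chr17:84683007-84683120 on the plus strand, holds these 109 bases and, at its left end, 5 further bases past the start of Abcg5, and the window before the start of Abca1 (chr4:53159896-53160145, minus strand) is given beside it as that of the efflux gene that rose. Capitals mark a CCAAT match, which takes up those 5 bases and so lies in the window of Abcg8 but not in that of Abcg5. The Abca1 window holds none.
Abcg5-Abcg8: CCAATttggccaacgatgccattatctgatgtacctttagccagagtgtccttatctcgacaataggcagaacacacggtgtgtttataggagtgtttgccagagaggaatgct
Abca1: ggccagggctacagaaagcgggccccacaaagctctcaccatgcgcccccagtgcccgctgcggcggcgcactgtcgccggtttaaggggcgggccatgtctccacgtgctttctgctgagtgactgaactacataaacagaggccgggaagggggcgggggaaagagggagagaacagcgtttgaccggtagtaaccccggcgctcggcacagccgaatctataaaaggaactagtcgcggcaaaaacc

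Ratios of partner genes within a liver do not depend on how libraries are scaled. The ratio of Abca1 to Abcg1, in FPKM, was 3.01, 3.79, 3.78 and 4.18 in WT mice 164, 165, 166 and 167 and 4.76, 6.79, 6.02 and 7.12 in E4bp4-LKO mice 143, 144, 145 and 179. All E4bp4-LKO values lay above all WT values (exact two-sided permutation p = 0.0286, the smallest that 4 against 4 allows, and 0.0571 adjusted over the 4 ratios computed). Abca1 alone already separated the groups, and Abcg1 had an estimate of the opposite sign, so their ratio is not separate evidence. The 4 pairs were not among the planned tests, and the adjustment does not allow for how they were chosen. The ratio of Abcg8 to Abcg5 moved over a narrow range, from 0.563, 0.582, 0.550 and 0.595 in WT to 0.608, 0.627, 0.645 and 0.604 in E4bp4-LKO, also without overlap (exact permutation p = 0.0286, adjusted 0.0571). The ratio of Insig1 to Insig2 was 0.867 ± 0.248 in WT and 1.03 ± 0.276 in E4bp4-LKO (exact permutation p = 0.343, adjusted 0.343, n = 4). That of Lcat to Soat2 was 13.4 ± 2.23 and 15.8 ± 2.10 (exact permutation p = 0.2, adjusted 0.267, n = 4).

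**Figure D4:**
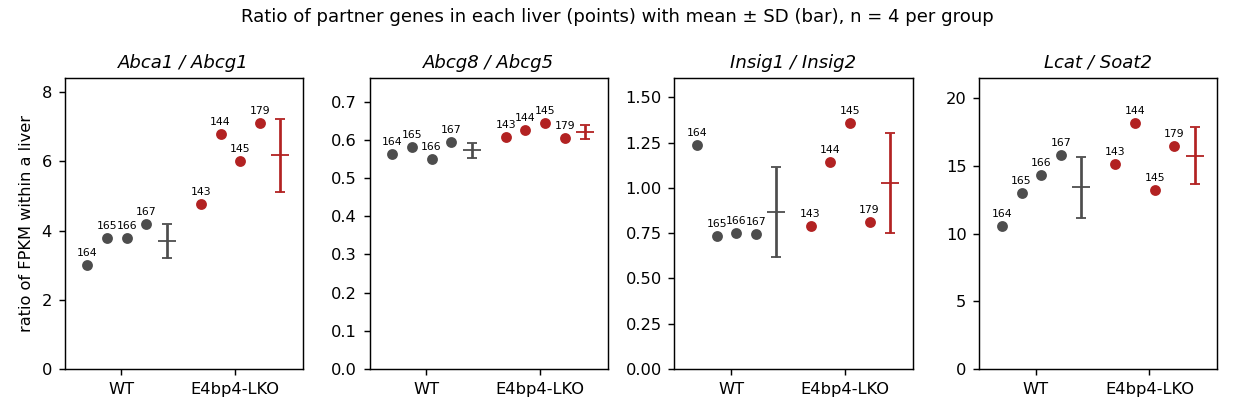
Ratio of FPKM (y axis, from 0) within each liver for 4 pairs of cholesterol genes, with mean ± SD beside the points, 4 livers per group. For Abca1 to Abcg1 the WT livers lie between 3.01 and 4.18 and the E4bp4-LKO livers between 4.76 and 7.12, whereas the Insig1 to Insig2 and Lcat to Soat2 ratios overlap.

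The esterification enzymes did not pass the test. Lcat, which hepatocytes secrete to esterify cholesterol on HDL, was 249, 291, 339 and 381 CPM in WT and 309, 433, 392 and 416 CPM in E4bp4-LKO livers (log2 fold change 0.30, SE 0.14, edgeR adjusted p = 0.200). E4bp4-LKO mouse 143 lay inside the WT range and the other 3 above it. Soat2, the esterifying enzyme of hepatocytes, was 37.1, 34.9, 37.0 and 37.8 CPM in WT and 31.9, 37.3, 46.4 and 39.5 CPM in E4bp4-LKO livers (log2 fold change 0.08, SE 0.10, edgeR adjusted p = 0.660). In FPKM, Lcat was the most abundant of all 32 genes in WT, at 242 ± 26.8.

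A list of 32 further genes of cholesterol handling was read beside these, of which 31 could be tested. Of the 31, 1 rose and 3 fell, beside 4.38% and 6.49% of all genes. Soat1, the esterifying enzyme widely expressed in macrophages, was 15.3, 13.1, 11.2 and 9.79 CPM in WT and 8.44, 5.99, 6.95 and 7.27 CPM in E4bp4-LKO livers (log2 fold change -0.79, SE 0.15, edgeR adjusted p = 0.0114). Npc2, which hands cholesterol out of the lysosome, fell from 96.9 ± 4.48 to 74.1 ± 6.23 CPM (-0.39, SE 0.08, adjusted p = 0.0126). Both passed in each of the 8 fits that left out 1 mouse. Pltp, the phospholipid transfer protein, fell from 124 ± 4.71 to 92.4 ± 11.8 CPM (-0.42, SE 0.09, adjusted p = 0.0184), and without E4bp4-LKO mouse 144 its adjusted p was 0.0635. Mbtps1, the Golgi protease that makes the first cut in SREBP2, rose from 75.5 ± 1.94 to 89.2 ± 4.39 CPM (0.24, SE 0.06, adjusted p = 0.0378) and kept that call in 1 of the 8 fits. The 3 that fell did so beside falls in 5 of 10 macrophage and Kupffer cell markers and 6 of 6 lipid-associated macrophage markers. Of the 10 estimates, 9 were negative and 1 was positive (Marco, 1.76, edgeR adjusted p = 0.173). The part of those cells was not tested. When WT mice 164 and 165 were both left out, 0 of the 31 rose and 1 fell.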

How the data were processed

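Whole-liver RNA of 4 WT and 4 E4bp4-LKO mice was sequenced, with 1 deposited file per library. Per the labels' protocols, mRNA was enriched by poly(A) selection or by ribosomal RNA depletion, and they do not say which served which library. HISAT2 is named in the submitters' processing notes. The quantifier, genome build and strand were not given in the sources used here. Deposited expected counts are estimated counts per gene without normalization. Deposited FPKM values were normalized by the authors for transcript length and library size, and a gene missing from a file was read as 0. RefSeq accessions named 29 entries without a symbol, and 1 stayed unnamed.

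Expected counts were rounded and fitted in R 4.3.3 with edgeR 4.0.16 (TMM, filterByExpr with minimum count 10 and minimum total 15, robust glmQLFit, two-sided glmQLFTest). Benjamini-Hochberg adjustment ran over all 13241 genes tested, with a threshold of 0.05. Log2 fold changes are E4bp4-LKO over WT, CPM is TMM-scaled, ± is the SD with n = 4 and intervals are 95%. Gene ratios used the exact permutation test over 70 arrangements. Alternatives were DESeq2 1.42.0, limma 3.58.1 on log2 FPKM with pseudocounts 1 and 0.1, library totals, other filters, a ratio of CPM in place of FPKM (added after seeing the data) and leaving out mice. Fits were tested on simulated data. Counting floors cover counting error only.

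Values per liver are given for cholesterol genes that passed and for the 2 of each role with the smallest p. Sqle, Fdps, Insig1, Insig2, Abcg5, Abcg8 and the printed sequences were chosen after their values were seen. The gene pairs of the ratios were not among the planned tests. The genes and lists were chosen with earlier results of these data known.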

Additional observations from a re-analysis of the deposited data

Results flagged for a closer look

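In 4 of the 74 groups of 4 livers checked, 1 liver stood apart from the other 3 by more than Dixon's 95% critical ratio, and chance gives about 1 in 20 groups. WT mouse 164 stood above the other WT mice for 3 genes. Mvd, the mevalonate diphosphate decarboxylase, was 8.01 CPM there and 3.81 to 4.30 CPM in the others. Cyp51, the sterol C14-demethylase, was 46.8 CPM there and 32.2 to 34.6 CPM in the others. Insig1 was 212 CPM there and 133 to 142 CPM in the others. Insig2 was 219 CPM in E4bp4-LKO mouse 143 and 143 to 148 CPM in the other E4bp4-LKO mice.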

How the results depend on the processing

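Values here are log2 fold changes or counts of genes past the threshold. Nfil3 passed under every alternative run (-1.57 to -1.17). The medians of the role groups moved by less than the spread between mice, which leaving out 1 of 4 mice can hardly exceed. Relative to all genes, that of the synthesis enzymes ran from -0.11 to 0.15 over those fits. DESeq2 called 972 genes higher, and 5 cholesterol genes higher and 2 lower. Without a filter on low counts 1 cholesterol gene was lower. Library totals gave 291 genes higher and 1660 lower (85.1% of calls lower, against 59.7%), with 0 and 1 cholesterol genes. FPKM with pseudocount 1 gave 261 and 1423 (84.5% lower), with 0 and 2 cholesterol genes, with pseudocount 0.1 it gave 261 and 1449, with 0 and 2, and without an FPKM filter 210 genes were higher and 0 cholesterol genes. The median of all genes was -0.15 on library totals and -0.11 on FPKM. Leaving out 1 mouse gave 235 to 608 genes higher and 274 to 936 lower, with 0 to 3 cholesterol genes higher and 0 to 2 lower. Leaving out both WT mice 164 and 165 gave 182 and 205, with 1 cholesterol gene higher.

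Some estimates changed sign, none of them past the threshold in either fit. On library totals they were Acat2 -0.037, Pmvk -0.10, Fdft1 -0.078, Lss -0.13, Cyp51 -0.14, Nsdhl -0.075, Sc5d -0.13, Scarb1 -0.032 and Soat2 -0.079. On FPKM with pseudocount 1, with and without the filter, they were Acat2 -0.045, Pmvk -0.095, Fdft1 -0.078, Lss -0.091, Cyp51 -0.13, Msmo1 -0.028, Nsdhl -0.13, Sc5d -0.14, Scarb1 -0.049 and Soat2 -0.083. With pseudocount 0.1 they were Acat2 -0.046, Pmvk -0.10, Fdft1 -0.082, Lss -0.11, Cyp51 -0.14, Msmo1 -0.031, Nsdhl -0.15, Sc5d -0.14, Scarb1 -0.049 and Soat2 -0.088. Without WT mice 164 and 165 they were Acat2 -0.028, Mvd 0.024, Idi1 0.072, Fdps 0.049, Sqle 0.43 and Mylip 0.080. Leaving out 1 mouse gave Pmvk -0.090 to 0.17, Idi1 -0.19 to 0.10, Fdps -0.37 to 0.15, Sqle -0.58 to 0.23, Lss -0.060 to 0.18, Cyp51 -0.12 to 0.17, Msmo1 -0.037 to 0.30, Nsdhl -0.14 to 0.25, Sc5d -0.076 to 0.12, Insig2 -0.20 to 0.027 and Soat2 -0.018 to 0.16. The cause was not tested. No paired analysis was possible because the mouse numbers of the groups are all different. All cholesterol genes lay above the detection floor in every library, and how far depth widens the intervals was not tested.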
